A study of Mus musculus with 6 samples.

Results

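The proteasome is the large protease that degrades proteins tagged with ubiquitin, and its genes were followed here in EO771 cells, a mouse mammary tumour line, with and without recombinant lipocalin-2 (LCN2) protein. The genes were chosen by symbol, as every row of the deposited table that begins with Psm, a letter from a to g and a number. This took 50 of 19832 rows. Of these, 49 encode proteasome subunits, activators, inhibitors or assembly factors, and Psmc3ip encodes a meiotic recombination protein that shares only the start of the symbol. There were 3 libraries of EO771 cells given LCN2 and 3 of untreated EO771 cells (Control), and the labels state no dose and no exposure time. All 6 libraries come from 1 cell line, and nothing in the labels says that replicates were separate cultures, so each p-value reflects only how far these particular libraries lie apart, a spread that may be technical.

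The 26S proteasome is a barrel, the 20S core, capped by the 19S regulatory particle. In the core, rings of alpha subunits (Psma genes) gate the entry, and rings of beta subunits (Psmb genes) hold the proteolytic sites. In the 19S particle, ATPases (Psmc genes) unfold the substrate, while the other subunits (Psmd genes) form the base and the lid, which bind ubiquitin chains and remove them. Interferon can replace the catalytic beta subunits by Psmb8, Psmb9 and Psmb10, giving the immunoproteasome, and the Psme genes encode other caps that open the core.

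Values are FPKM, a measure of fragments scaled for transcript length and library size, and the unit was inferred from the deposited values. Each log2 fold change takes the LCN2 mean of log2(FPKM + 1) less that of the Controls, after TMM scaling between libraries (trimmed mean of M-values), and is smaller than the true log2 ratio for genes near 1 FPKM or less. A gene was called at an adjusted p under 0.05 in limma, adjusted over the 10309 genes that averaged 1 FPKM or more. How deeply each library was sequenced is unknown. The libraries had between 13356 and 13382 genes above 0 with LCN2 and between 13299 and 13461 in Control. Of 8 mammary epithelial markers, 6 reached 1 FPKM in at least 1 library, while Cdh1 was at most 0.209 FPKM and Elf5 was listed at 0. Krt8 had between 235 and 257 FPKM with LCN2 and between 299.8 and 313 FPKM in Control, and Epcam between 12.4 and 13.9 FPKM with LCN2 and between 15.2 and 17.1 FPKM in Control, while Krt18 had between 713 and 769 FPKM with LCN2 and between 671 and 728 FPKM in Control. All 8 summed to between 1034 and 1071 FPKM with LCN2 and between 1045 and 1108 FPKM in Control. Of the 2 leukocyte markers measured, Ptprc was at most 0.0868 FPKM and Cd68 between 7.48 and 9.53 FPKM, and both mast cell markers measured, Cpa3 and Tpsb2, were listed at 0. The 4 fibroblast markers summed to between 581 and 612 FPKM with LCN2 and between 489 and 545 FPKM in Control, nearly all of it from Dcn, while Pdgfra had between 3.44 and 3.86 FPKM with LCN2 and between 3.67 and 4.64 FPKM in Control, Pdgfrb was listed at 0 and Col1a1 was at most 0.134 FPKM. The part of these differences in the results below was not tested. With bulk RNA, fewer cells of a type and less RNA per cell cannot be told apart.

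Most proteasome genes were expressed above 10 FPKM and those called changed by at most 0.30 on the log2 scale with LCN2, except Psmd8, which rose by 0.66. Of the 50 genes, 46 reached the level required for testing. Among these 46, 2 were higher with LCN2 (Psmd8 and Psme3) and 7 were lower (Psmd1, Psma2, Psmd13, Psmd3, Psma4, Psmg2 and Psmb1), while 37 did not pass. That is 19.6% of the members, against 21.6% of all genes tested. By direction, 4.35% were higher, against 11.7% of all genes, and 15.2% were lower, against 9.94%. The share called was thus close to that over all genes. The groups did not overlap in 25 members (54.3%, against 44.5% of all genes). LCN2 was above in 10 of the 46 and below in 15, against 22.7% and 21.7% of all genes. The median log2 fold change of the members was -0.04, and that of all genes tested -0.001. Falls outnumbered rises with and without scaling, and by more without it. With values as deposited, where 23% of all genes were called, 1 member was higher and 13 lower (against 6.72% and 16.3% of all genes), and the medians were -0.10 for the members and -0.06 for all genes.

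**Figure D1:**
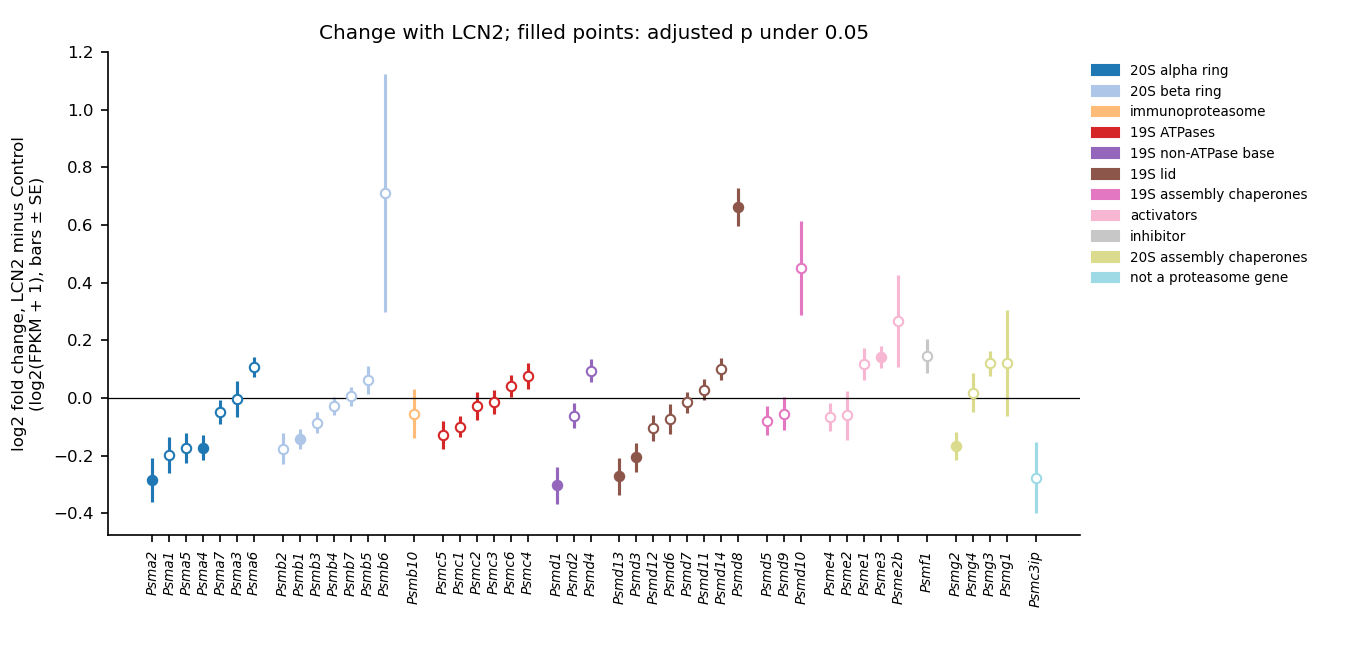
Log2 fold change of each tested proteasome gene (vertical axis, LCN2 minus Control, from log2(FPKM + 1) values, bars ± SE), ordered within subgroups along the horizontal axis. Filled points passed the threshold; Psmd8 (0.66) stands above all other filled points, which lie between -0.30 and 0.14, and the wide bar of Psmb6 goes with 1 low Control library.

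Psmd8 encodes a subunit of the 19S lid, whose yeast counterpart joins the lid last and allows it to dock on the base. It had 254, 225 and 266 FPKM in the LCN2 libraries, against 157, 171 and 161 FPKM in the Control libraries. Every LCN2 library lay well above every Control library, and LCN2 replicate 2 was the lowest of the 3. Its mean was 248 ± 21.04 FPKM with LCN2 and 163 ± 7.11 FPKM in Control (SD, n = 3 each), a rise of 59.1% after scaling (log2 fold change 0.66, SE 0.07, limma adjusted p = 0.0038). Whichever of the 6 libraries was left out, the gene was still called, with log2 fold changes between 0.61 and 0.74 and limma adjusted p-values of at most 0.028. The gene lies on chromosome 7, 29174188 to 29180701 on the minus strand (GRCm38). Its exons overlap those of no other annotated gene, and no run of 50 bases in its longest transcript is shared with another annotated transcript. In Control, Psmd8 was already the lid subunit with the highest level, and with LCN2 its mean was above that of every other proteasome gene measured.

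The other lid genes showed no such rise. Psmd13, a structural subunit of the lid, had 47.9, 50.4 and 42.6 FPKM with LCN2, against 60.3, 59.4 and 58.0 FPKM in Control. All LCN2 values were below all Control values, and the gene fell by 0.27 on the log2 scale (SE 0.06, limma adjusted p = 0.025). Psmd3, another structural subunit of the lid, had 80.7, 91.4 and 82.7 FPKM with LCN2, against 102, 104 and 101 FPKM in Control. It fell by 0.21 (SE 0.05, limma adjusted p = 0.029), and LCN2 replicate 2 was again the library nearest to the Controls. The remaining lid genes Psmd6, Psmd7, Psmd11, Psmd12 and Psmd14, the last of which encodes the enzyme that removes ubiquitin chains, did not pass, with log2 fold changes between -0.10 and 0.10. Among the 8 lid genes, 1 rose and 2 fell (12.5% and 25%, against 11.7% and 9.94% of all genes tested). The share called was 37.5%, against 21.6% of all genes, and this difference was not tested. Levels of the lid genes spanned 53.1 FPKM for Psmd13 to 206 FPKM for Psmd8, as means over the 6 libraries. Exons of Psmd13 overlap those of Sirt3 on the opposite strand and those of Psmd3 a noncoding gene on the opposite strand, and the sources used here do not say whether strand was used in counting.

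In the base of the 19S particle, Psmd1, a large scaffold subunit, showed the largest called fall. It had 67.4, 78.5 and 65.3 FPKM with LCN2, against 91.2, 92.2 and 88.3 FPKM in Control. The groups did not overlap, and the mean was 70.4 ± 7.11 FPKM with LCN2 and 90.6 ± 2.01 FPKM in Control (SD, n = 3 each), a log2 fold change of -0.30 (SE 0.07, limma adjusted p = 0.021). The exons of Psmd1 overlap those of Gm21972 on the same strand, with which 8.36% of the 50-base runs of its longest transcript are shared, and those of Htr2b on the opposite strand. The other scaffold subunit, Psmd2, had 85.6 ± 4.12 FPKM with LCN2 and 93.1 ± 1.63 FPKM in Control. The ubiquitin receptor Psmd4 had 147 ± 5.28 and 143 ± 3.76 FPKM in the same order, and neither passed (limma adjusted p = 0.32 and 0.12). For Psmd2, 26.1% of the 50-base runs of its longest transcript occur in transcripts of other genes. Of the 6 ATPase genes of the ring that unfolds substrates, 0 were called, against 21.6% of all genes tested. Their log2 fold changes lay between -0.13 for Psmc5 and 0.08 for Psmc4, and limma gave 2 of them, Psmc1 and Psmc5, an unadjusted p under 0.05 (0.028 and 0.032). Psmc1 had the highest mean of the ATPase genes (125 FPKM over the 6 libraries) and Psmc2 the lowest (49.5 FPKM). The assembly chaperones of the 19S base, which are not part of the finished protease, were at lower levels. Psmd5, Psmd9 and Psmd10 had means between 13.4 and 17.2 FPKM over the 6 libraries and were not called. Psmd10, which encodes gankyrin, had 15.9, 11.4 and 19.1 FPKM with LCN2, against 11.6, 10.9 and 11.3 FPKM in Control. Its LCN2 libraries were far apart, with replicate 2 at the Control level (log2 fold change 0.45, SE 0.16, limma adjusted p = 0.085), and without that replicate the gene passed (log2 fold change 0.65, limma adjusted p = 0.0047). In the other 5 fits that each drop a library it did not pass, with log2 fold changes between 0.29 and 0.48 and limma adjusted p-values between 0.15 and 0.21.

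**Figure D2:**
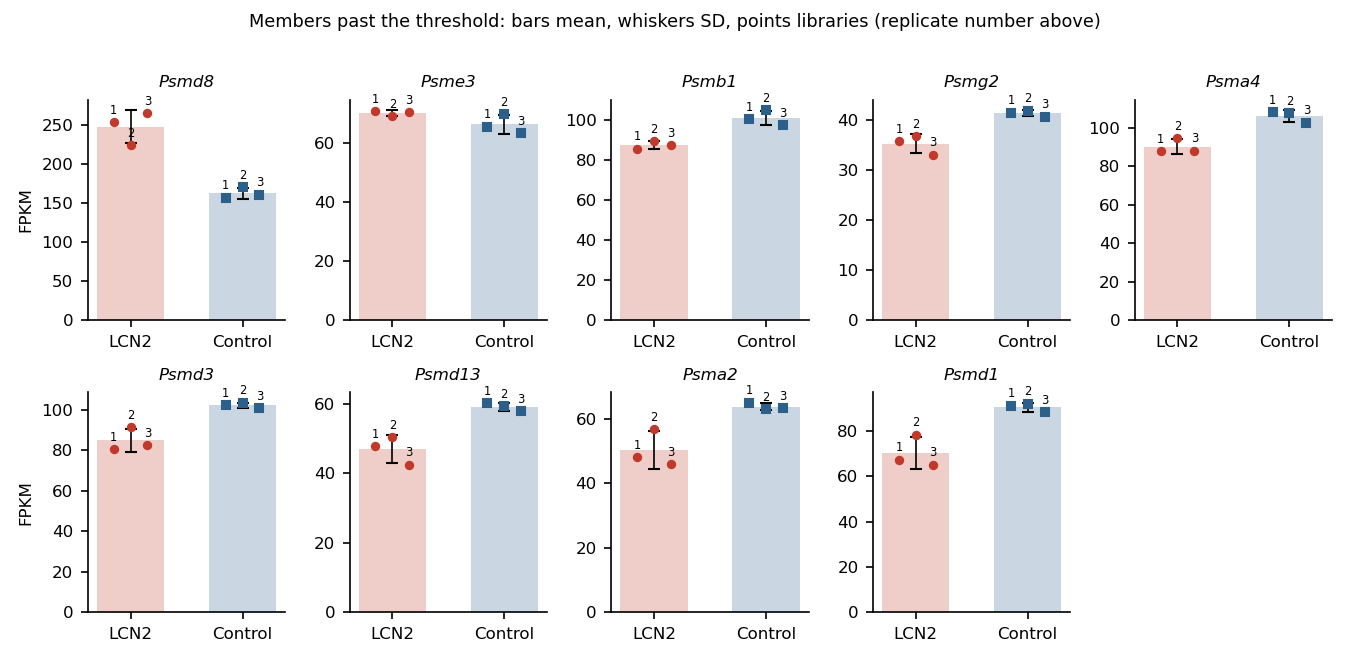
FPKM of the 9 called proteasome genes in each library (points, with the replicate number above), with the mean (bars) and SD (whiskers) of LCN2 and Control (n = 3 each). Psmd8 has a mean of 248 FPKM with LCN2 and 163 FPKM in Control, and the means of the other 8 genes lie closer together.

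In the 20S core, 3 of 14 genes fell and 0 rose (21.4% called, against 21.6% of all genes, of which 9.94% were lower and 11.7% higher). The median log2 fold change of the 14 genes was -0.07, against -0.001 over all genes. The alpha ring gene Psma2 had 48.0, 56.9 and 45.9 FPKM with LCN2, against 65.0, 63.1 and 63.3 FPKM in Control. All LCN2 libraries lay below all Controls (log2 fold change -0.28, SE 0.08, limma adjusted p = 0.038). Psma4, also of the alpha ring, had 87.7, 94.6 and 88.1 FPKM with LCN2, against 108, 108 and 103 FPKM in Control (log2 fold change -0.17, SE 0.04, limma adjusted p = 0.032). In the beta ring, the noncatalytic subunit gene Psmb1 had 85.6, 89.3 and 87.4 FPKM with LCN2, against 100.3, 105 and 97.4 FPKM in Control (log2 fold change -0.14, SE 0.04, limma adjusted p = 0.031). The groups of Psma4 and Psmb1 did not overlap either. Just outside the threshold were Psma5 (log2 fold change -0.17), Psmb2 (-0.18) and Psma1 (-0.20), with limma adjusted p-values between 0.051 and 0.057, and for each the LCN2 libraries lay below the Controls. Psma6 was the member of the alpha ring with values on the other side, at 159 ± 1.17 FPKM with LCN2 and 154 ± 2.45 FPKM in Control (log2 fold change 0.11, limma adjusted p = 0.065). Levels within a ring differed more than they did between groups. In the alpha ring the mean over the 6 libraries was 239 FPKM for Psma7 and 57.0 FPKM for Psma2, and in the beta ring 183 FPKM for Psmb4 and 62.8 FPKM for Psmb6. Exons of Psma4 overlap those of AY074887 on the opposite strand, and 31.5% of the 50-base runs of its longest transcript occur in transcripts of other genes. The same share was 55.4% for Psma5 and 3.53% for Psma2, so that reads of Psma5 in particular may be divided with its copies.

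**Figure D3:**
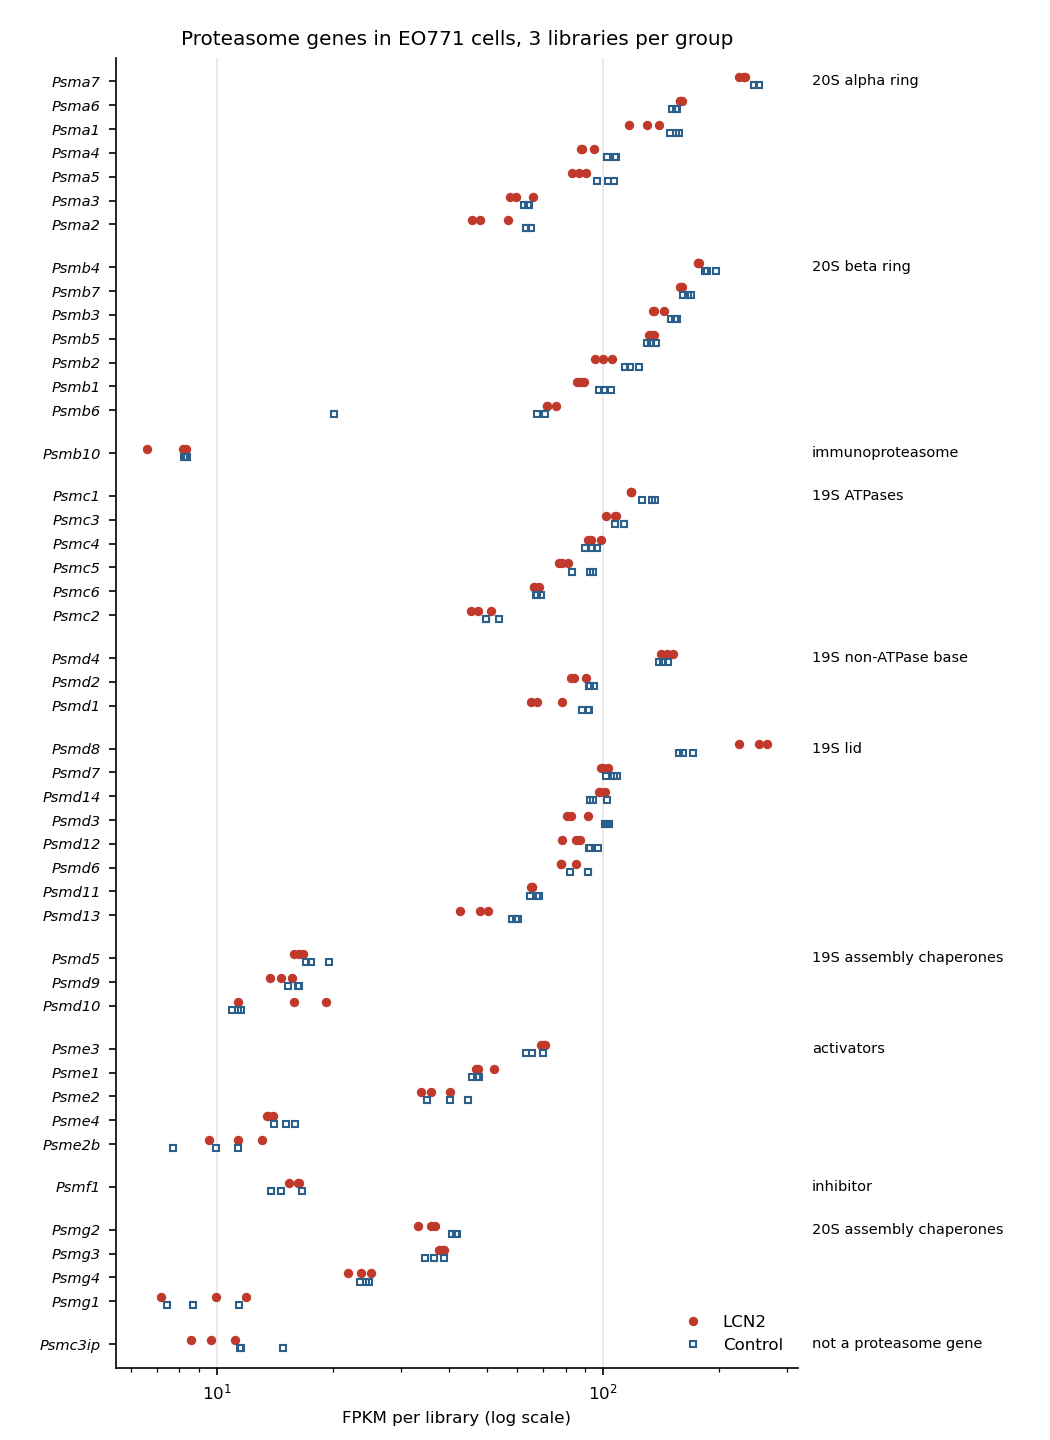
FPKM in each library (horizontal axis, log scale) of the 46 proteasome genes that were tested, grouped by place in the complex and ordered by mean, with LCN2 above Control for each gene. Levels range from a mean of 8.01 FPKM for Psmb10 to 239 FPKM for Psma7, and Psmd8 and the low Control value of Psmb6 stand out.

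Summed over the alpha ring, the libraries held 807, 832 and 780 FPKM with LCN2 and 903, 896 and 877 FPKM in Control. Over the 8 lid genes the sum was 812, 805 and 810 FPKM with LCN2 and 767, 802 and 759 FPKM in Control. The alpha ring was thus lower, and the lid higher, in every LCN2 library than in any Control library, with values as deposited. Without Psmd8 the lid sum was 558, 581 and 544 FPKM with LCN2 and 610.3, 631 and 598 FPKM in Control, so that it was lower in every LCN2 library. The beta ring did not separate the groups, with sums of 865, 880.5 and 860.1 FPKM with LCN2 and 937, 941 and 859 FPKM in Control. Only Control replicate 3 was as low as the LCN2 libraries, and its sum holds the single low value of Psmb6. That gene had 20.1 FPKM there, against 70.6 and 67.5 FPKM in the other Controls, and a sum without it was not taken. The ATPase genes summed to between 507 and 518 FPKM with LCN2 and between 523 and 563 FPKM in Control. The other base genes summed to between 291 and 315 FPKM with LCN2 and between 320.4 and 334 FPKM in Control. All these sums are of values as deposited, and whether the groups stay apart after TMM scaling was not examined. Over all genes tested, values as deposited gave 16.3% lower and 6.72% higher, against 9.94% and 11.7% after TMM scaling. All 50 genes together made up 0.931%, 0.944% and 0.927% of the summed FPKM of the LCN2 libraries and 0.965%, 0.954% and 0.933% of the Control libraries, so 1 Control library lay within the LCN2 range. This was Control replicate 3, whose total includes the low Psmb6 value.

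The proteolytic sites of the core belong to Psmb5 (chymotrypsin-like activity), Psmb6 (caspase-like) and Psmb7 (trypsin-like). Psmb5 had 134 ± 1.86 FPKM with LCN2 and 134 ± 3.67 FPKM in Control (log2 fold change 0.06, SE 0.05), and Psmb7 had 159 ± 1.22 and 165 ± 4.21 FPKM in the same order (log2 fold change 0.01, SE 0.03). Neither passed (limma adjusted p = 0.36 and 0.91), and the sign of the Psmb7 value turned under other scalings. In annotated transcripts, 57.1% of the 50-base runs of Psmb5 occur also in other genes, among them a pseudogene, Psmb5-ps. Exons of Psmb7 overlap those of Nek6 on the opposite strand. Psmb6 had 75.4, 71.6 and 71.5 FPKM with LCN2, against 70.6, 67.5 and 20.1 FPKM in Control. Control replicate 3 was far below the other 5 libraries, which lay close together. The log2 fold change of 0.71 had a wide error (SE 0.41, limma adjusted p = 0.24) and was 0.15 without Control replicate 3 (limma adjusted p = 0.16).

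The immunoproteasome genes that replace them were at or near the bottom of the range. Psmb8, which takes the place of Psmb5, had 0.442, 0.333 and 0.285 FPKM with LCN2, against 0.159, 0.0957 and 0.265 FPKM in Control. The LCN2 libraries were above the Controls, though LCN2 replicate 3 was close to Control replicate 3. A two-sided exact permutation test gave p = 0.1, the smallest that 3 against 3 allows, and Psmb8 did not pass when limma was run on genes of every level (adjusted p = 0.087). Psmb9, which takes the place of Psmb6, had 0.113, 0.735 and 0.254 FPKM with LCN2, against 0.124, 0.205 and 0.118 FPKM in Control. Its groups overlapped, and its exons overlap those of Tap1, the peptide transporter gene, on the opposite strand. Exons of Psmb8 overlap those of Gm20496, also on the opposite strand. Psmb10, which takes the place of Psmb7, had 8.33, 8.16 and 6.58 FPKM with LCN2, against 8.34, 8.38 and 8.24 FPKM in Control (log2 fold change -0.05, SE 0.08, limma adjusted p = 0.67). Its sign turned to 0.04 without LCN2 replicate 3, the lowest library. Set against their constitutive partners, Psmb8 was at 0.265% ± 0.0640 of Psmb5 with LCN2 and 0.129% ± 0.0639 in Control, and Psmb10 at 4.83% ± 0.573 of Psmb7 with LCN2 and 5.03% ± 0.0841 in Control (SD, n = 3 each). The tissue-specific core genes were practically absent, with Psma8, of the testis, listed at 0 and Psmb11, of the thymus, at most 0.0238 FPKM.

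**Figure D4:**
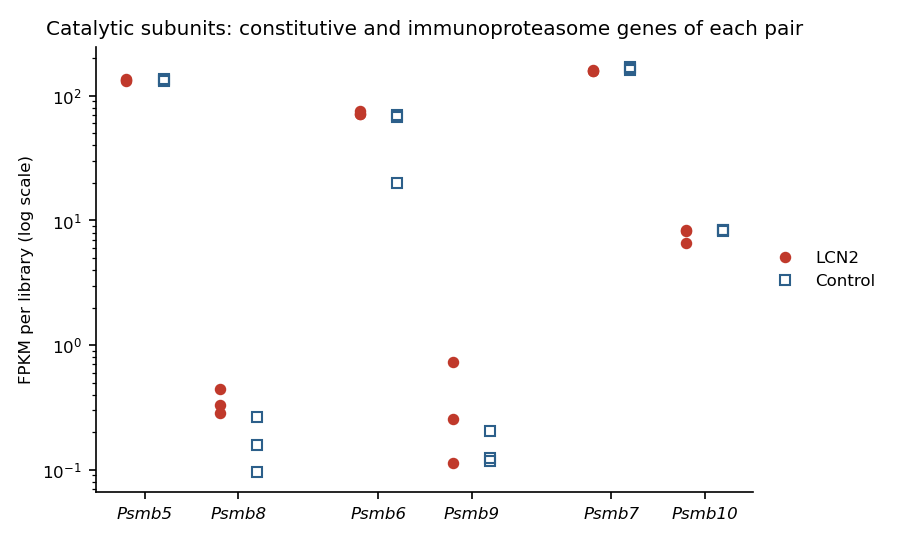
FPKM in each library (vertical axis, log scale) of the catalytic subunit genes and of the immunoproteasome gene that replaces each, with LCN2 left of Control. Psmb8 and Psmb9 stay below 1 FPKM in all 6 libraries, Psmb10 lies near 8 FPKM, and Psmb6 has 1 Control library at 20.1 FPKM.

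Among the activators, Psme3, which encodes a nuclear cap of the core, was called higher. It had 70.8, 69.0 and 70.4 FPKM with LCN2, against 65.5, 69.8 and 63.3 FPKM in Control. As deposited, these values overlap, and after scaling they did not (log2 fold change 0.14, SE 0.04, limma adjusted p = 0.038). The call depended on scaling, with an adjusted p of 0.27 in limma on values as deposited. The interferon-inducible cap is built of Psme1 and Psme2. Psme1 had 48.9 ± 2.83 FPKM with LCN2 and 46.9 ± 1.04 FPKM in Control, and Psme2 had 36.6 ± 3.19 and 40.0 ± 4.86 FPKM in the same order, and neither passed (limma adjusted p = 0.16 and 0.64). Of the 50-base runs of Psme2, 59.3% are found also in its copy Psme2b or another gene, so the values of Psme2 and Psme2b (11.3 ± 1.79 FPKM with LCN2, 9.68 ± 1.86 FPKM in Control) are uncertain. Psme4, whose product caps the core in the nucleus, had 13.7 ± 0.287 FPKM with LCN2 and 15.04 ± 0.946 FPKM in Control and did not pass (limma adjusted p = 0.35). Neither did Psmf1, which encodes an inhibitor of the core, with a log2 fold change of 0.15 (SE 0.06, limma adjusted p = 0.11).

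The Psmg genes encode chaperones that assemble the alpha ring. Psmg2 had 35.9, 36.8 and 33.1 FPKM with LCN2, against 41.5, 41.9 and 40.7 FPKM in Control, with no overlap, and fell by 0.17 on the log2 scale (SE 0.05, limma adjusted p = 0.0468). Psmg1, Psmg3 and Psmg4 were not called, with log2 fold changes between 0.02 and 0.12. Psmg1 varied most among libraries, at 9.96, 7.16 and 11.9 FPKM with LCN2 and 8.66, 11.4 and 7.43 FPKM in Control. Psmc3ip, the gene outside the proteasome that the pattern takes, had 9.79 ± 1.29 FPKM with LCN2 and 12.6 ± 1.91 FPKM in Control and was not called (limma adjusted p = 0.14), and its exons overlap those of Mlx on the opposite strand.

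The calls of the falling members did not survive the loss of most single libraries. Leaving out either of Control replicates 1 and 3, or either of LCN2 replicates 1 and 3, left 0 of the 7 falls called, and in these 4 fits between 175 and 424 genes were higher and between 90 and 219 lower over the whole table. Psmb1 and Psmg2 were lost without Control replicate 2 as well. Psme3 was lost in every such fit except the one without LCN2 replicate 2. The largest adjusted p of these 8 genes in such fits was 0.14. Without LCN2 replicate 2, 3 members were higher and 10 lower, while over all genes 1596 were higher and 1551 lower, against 1204 and 1025 with all libraries. That library lay nearest to the Control mean in 31 of 46 members (67.4%), against 58.2% of all genes tested, and in all 9 called members, against 81.6% of all genes called.

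**Figure D5:**
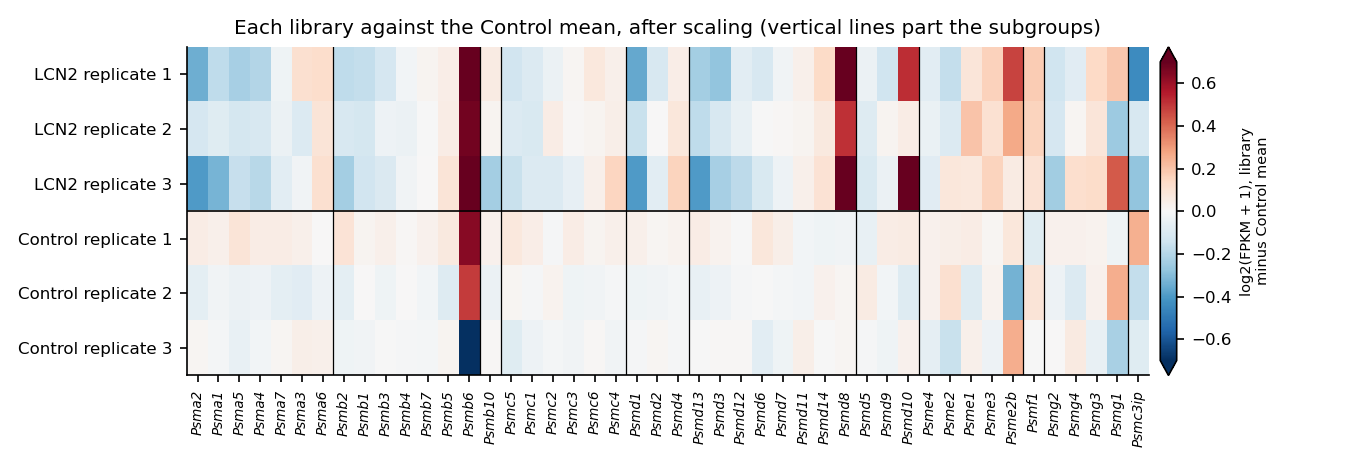
Difference of each library (rows) from the Control mean on the log2(FPKM + 1) scale after scaling, for the 46 tested proteasome genes (columns, parted by subgroup). LCN2 replicate 2 is paler than the other LCN2 libraries in most falling genes and in Psmd8, and Psmb6 in Control replicate 3 is the strongest single low value.

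Promoter sequences are shown for both called rises and for the 3 largest called falls, so that promoters of members called in each direction can be read side by side, and for Psmb6 as a member that carries the motif through which the transcription factor NFE2L1 is known to induce proteasome genes. Each is from RefSeq (GRCm38.p6), runs from 250 bases before to 50 bases after the annotated start, and reads 5' to 3' on the gene's own strand. The regions are chr7:29180624-29180923 (minus strand) for Psmd8, chr11:101315963-101316262 (plus) for Psme3, chr1:86064369-86064668 (plus) for Psmd1, chr13:14612992-14613291 (plus) for Psma2, chr7:140882144-140882443 (plus) for Psmd13 and chr11:70525107-70525406 (plus) for Psmb6. Capitals mark matches, on either strand, to the antioxidant response element core TGACNNNGC, to the CCAAT box or to the amino acid response element core TGATGNAA.
Psmd8 promoter: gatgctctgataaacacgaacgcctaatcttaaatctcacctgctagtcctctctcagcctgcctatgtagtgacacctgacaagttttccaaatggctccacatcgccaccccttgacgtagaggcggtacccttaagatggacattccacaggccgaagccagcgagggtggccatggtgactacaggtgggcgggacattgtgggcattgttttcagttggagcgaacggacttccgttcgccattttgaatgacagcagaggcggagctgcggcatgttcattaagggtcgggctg
Psme3 promoter: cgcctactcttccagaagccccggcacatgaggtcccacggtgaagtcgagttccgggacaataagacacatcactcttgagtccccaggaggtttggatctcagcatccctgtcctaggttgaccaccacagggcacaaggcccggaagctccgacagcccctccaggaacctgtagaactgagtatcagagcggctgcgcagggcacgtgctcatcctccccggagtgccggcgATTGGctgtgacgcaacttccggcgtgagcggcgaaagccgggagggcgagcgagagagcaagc
Psmd1 promoter: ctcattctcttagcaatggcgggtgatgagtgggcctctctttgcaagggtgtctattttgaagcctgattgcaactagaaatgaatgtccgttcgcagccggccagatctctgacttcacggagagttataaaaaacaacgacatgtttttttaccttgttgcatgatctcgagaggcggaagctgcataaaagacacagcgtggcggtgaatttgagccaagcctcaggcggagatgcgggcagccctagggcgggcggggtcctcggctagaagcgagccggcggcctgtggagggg
Psma2 promoter: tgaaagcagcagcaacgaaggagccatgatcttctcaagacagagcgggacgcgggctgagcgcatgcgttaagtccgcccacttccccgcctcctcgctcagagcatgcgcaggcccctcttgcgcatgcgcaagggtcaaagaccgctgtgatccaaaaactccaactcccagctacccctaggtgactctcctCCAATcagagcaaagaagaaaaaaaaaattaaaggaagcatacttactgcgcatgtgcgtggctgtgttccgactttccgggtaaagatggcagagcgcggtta
Psmd13 promoter: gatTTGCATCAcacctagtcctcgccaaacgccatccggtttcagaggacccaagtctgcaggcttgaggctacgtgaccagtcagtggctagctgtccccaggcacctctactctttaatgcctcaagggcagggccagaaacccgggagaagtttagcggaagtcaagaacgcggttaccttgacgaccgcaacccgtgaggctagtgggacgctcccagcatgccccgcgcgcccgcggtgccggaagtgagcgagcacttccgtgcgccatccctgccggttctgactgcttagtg
Psmb6 promoter: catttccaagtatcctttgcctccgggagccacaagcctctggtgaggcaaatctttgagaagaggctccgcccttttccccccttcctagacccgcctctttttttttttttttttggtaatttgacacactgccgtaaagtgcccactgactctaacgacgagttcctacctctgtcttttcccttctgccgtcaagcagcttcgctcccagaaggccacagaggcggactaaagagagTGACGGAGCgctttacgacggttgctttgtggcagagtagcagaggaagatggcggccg

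Promoters were found for 41 of the 49 proteasome genes, 44 in number. The antioxidant response element core occurred in 6 of them (13.6%, against 12.4% of 32817 promoters of the same length), those of Psmb5, Psmb6, Psmc6, Psmd12, Psmd9 and Psme4. Of these 6 genes 0 were called, against 21.6% of all genes tested. The CCAAT box occurred in 14 (31.8%, against 37.4%), Psma2 and Psme3 among them, and the amino acid response element core in 1 (2.27%, against 3.97%), that of Psmd13. The letters searched did not overlap between these motifs in the sequences shown. The Psmd8 and Psmd1 windows, which belong to the largest called rise and the largest called fall, held none of the 3 motifs. The windows follow RefSeq starts, and GENCODE M21 starts some genes elsewhere. It starts Psmd1 at 86064387 and Psmd13 at 140881968. By that annotation nearly all of the Psmd1 window and all of the Psmd13 window lie inside the gene.

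Other genes of the pathway were taken from lists. Of 22 tested cofactors and assembly factors, 3 rose and 2 fell (22.7% called), a share close to the 21.6% of all genes. Rad23b, which shuttles ubiquitinated proteins to the proteasome, had 105 ± 4.71 FPKM with LCN2 and 91.2 ± 3.02 FPKM in Control (log2 fold change 0.26, SE 0.05, limma adjusted p = 0.013). The 19S ubiquitin receptor gene Adrm1 rose by 0.24 and Zfand2a, a stress-induced partner of the 19S particle, by 0.34 (limma adjusted p = 0.023 and 0.026). Pomp, which encodes the chaperone that matures the core, had 106 ± 6.499 FPKM with LCN2 and 134 ± 6.57 FPKM in Control and fell by 0.28 (limma adjusted p = 0.025). The other fall was in Vcp, the unfolding ATPase that delivers substrates, by 0.17 (limma adjusted p = 0.034), named here after its value was seen. Adrm1, Zfand2a, Pomp and Vcp lost their calls when any of Control replicates 1 and 3 or LCN2 replicates 1 and 3 was left out, and Rad23b when Control replicate 3 or LCN2 replicate 1 was.

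Of 13 tested genes listed for the control of proteasome gene transcription, which are transcription factors and processing enzymes, 8 were called (61.5%, against 21.6% of all genes). The difference between these shares was not tested, and the list was chosen with earlier results of these data known. There were 6 rises and 2 falls, and the median log2 fold change of the 13 genes was 0.18, against -0.001 over all genes. The CCAAT-binding subunit gene Nfyb had 24.6 ± 1.40 FPKM with LCN2 and 18.4 ± 0.461 FPKM in Control (log2 fold change 0.46, SE 0.06, limma adjusted p = 0.0056) and was called whichever library was left out. Foxo3 rose by 0.51 and the small MAF gene Mafk by 0.43, while its relative Mafg fell by 0.21 (limma adjusted p = 0.01, 0.017 and 0.02). Nfe2l1, the factor known to induce proteasome genes when the protease is inhibited, had 66.7 ± 7.28 FPKM with LCN2 and 52.3 ± 5.18 FPKM in Control and rose by 0.40, and its relative Nfe2l2 had 56.8 ± 6.42 and 75.4 ± 4.46 FPKM in the same order and fell by 0.35 (limma adjusted p = 0.022 and 0.029), both named after their values were seen. The remaining rises, also named afterwards, were in Maff (0.32) and the heat shock factor gene Hsf1 (0.20). Without Control replicate 1, Control replicate 3 or LCN2 replicate 3 the list had 2 rises and 0 falls, and without LCN2 replicate 1 it had 1 rise. Nfe2l1, Nfe2l2, Mafk, Mafg and Maff lost their calls in each of these 4 fits, Hsf1 in these and without Control replicate 2, and Foxo3 without LCN2 replicate 1. Hsf1 was also not called with values as deposited (limma adjusted p = 0.13).

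Rps27a, which encodes a ubiquitin fusion and is named after its values were seen, had 620, 509 and 192 FPKM with LCN2, against 569, 444 and 188 FPKM in Control, so that replicate 3 was low in both groups (limma adjusted p = 0.82). Of 8 tested genes of antigen processing and its control, 1 rose and 0 fell (12.5% called, against 21.6% of all genes). This was B2m, the light chain of MHC class I, with 494 ± 4.68 FPKM with LCN2 and 428 ± 10.5 FPKM in Control (log2 fold change 0.27, SE 0.03, limma adjusted p = 0.0055). The transporter gene Tap1, next to Psmb9, was at 1.59 ± 0.390 FPKM with LCN2 and 1.56 ± 0.415 FPKM in Control and did not pass (limma adjusted p = 0.83). Exon overlap was not checked for the genes of these lists.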

How the data were processed

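The authors deposited 1 table with a value per gene and library, which was treated here as FPKM. The table is described as raw counts, but 0% of the deposited values above 0 are whole (tolerance 1e-9), and the values times the longest annotated transcript in kilobases sum to between 1032628 and 1095179 per library. The genome build was GRCm38, per the submitters' processing notes; aligner, quantifier and strand setting were not given in the sources used here. Relative depth was not recovered: among low values, the commonest ratio between libraries held in at most 6 of up to 428 genes, so no counting intervals are given.

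Values were scaled by unweighted TMM (divisors 0.973 to 1.06; trims of 0.3 and 0.05), and log2(FPKM + 1) was fitted with limma 3.58.1 (R 4.3.3, variance trend, no replicate term) over the 10309 genes averaging 1 FPKM or more. Tests are two-sided with Benjamini-Hochberg adjustment. The fit was tested on simulated data. TMM had been chosen in an earlier analysis of these data after the split of calls without scaling was seen. The labels name no culture, batch or day shared by same-numbered libraries, so the numbers were not treated as pairs. Deviations of same-numbered libraries from their group means correlated at -0.22, -0.26 and 0.01, which cannot show whether they were cultured or processed together.

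Positions, exon overlaps and shared 50-base runs are from GENCODE M21. The members and lists were chosen with earlier results of these data known. Named are every called member, the catalytic subunits and their replacements, the highest and lowest member of each subgroup, and in each list up to 4 called genes by adjusted p; others are said to be chosen after their values were seen, except that members not called are given throughout as values. Of the genes listed, Paaf1 and H2-K1 were not analysed here, and Nfe2l3 and Tap2 were below the level required. The calls of a further list of related genes are not reported here.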

Additional observations from a re-analysis of the deposited data

How the results depend on the processing

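Psmd8 rose and was called under every setting run (log2 fold change between 0.60 and 0.74). The 7 falls kept their direction in all settings. As deposited, 1 member was higher and 13 lower (all genes 693 and 1680), and 8 related genes were lower. With column sums, 1 member was higher and 11 lower (all genes 950 and 1308). With quantile normalization, 1 member was higher and 10 lower (all genes 1108 and 1168). Without a filter on low values, 2 members were higher and 5 lower (all genes 874 and 602), and 2 related genes were lower. Psma2 and Psmg2 were then not called (limma adjusted p = 0.068 and 0.06). Psmg2 was also not called with the filter at a mean of 0.1 (limma adjusted p = 0.0501). Without a variance trend, 1 member was higher and 3 lower (all genes 1066 and 886), and 3 related genes were lower. With the replicate number as a block, Psmd8 remained the only called member (1 higher, 0 lower). Limma without the block gave 2 and 7. With the block, 164 genes were higher and 73 lower, and 2 related genes were higher and 0 lower. The labels give a shared number and name no shared culture or batch. Same-numbered libraries correlated at -0.22, -0.26 and 0.01, and none of the 3 correlated best with its own number among LCN2 libraries. These correlations cannot show whether same-numbered libraries were cultured or processed together, so which of the 2 fits is right was not settled. Leaving out 1 library gave between 175 and 1596 genes higher, 90 and 1551 lower, 1 and 3 members higher, 0 and 10 lower, and 2 and 14 related genes higher, 0 and 8 lower. Psmb7 turned to -0.055 as deposited, -0.021 with column sums and -0.044 with quantile normalization, and lay between -0.007 and 0.021 with 1 library left out; Psmb10 lay between -0.113 and 0.039, above 0 without LCN2 replicate 3. For these changes the cause was not tested. Read depth is unknown, so no counting error can be given for the members below 1 FPKM.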

Other observations

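The low value of Psmb6 in Control replicate 3, noticed after its values were seen, was 3.36 times below the next lowest library. Among 10309 genes tested, 24 (0.233%) had 1 library at least 3-fold under the next lowest, and Psmb6 was the 1 proteasome gene among them. In 3 of these 24 genes the low library was Control replicate 3. Of 1442 genes that averaged 50 FPKM or more, 2 showed such a gap, Psmb6 among them. The other Control libraries of Psmb6 averaged 69.1 FPKM.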
